A study of Mus musculus with 6 samples.

Results

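Stem-labelled progenitors were the cells of the marrow preparations that an automated comparison with the ImmGen reference had named "Stem cells" and that lay in cluster 4 or cluster 5 of the deposited clustering at resolution 0.1. There were 189 of them among 69776 kept cells, 89 in cluster 4 beside 7532 other cells of that cluster, and 100 in cluster 5 beside 7254 others. The label was given to 207 cells in all, of which 1 lay in cluster 7 and 17 in cluster 8, and those were not members. Both the label and the clusters had been made from the same counts that are described here, so differences between members and other cells, or between the members of the 2 clusters, are given as values without a test.

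The study set droplet-based RNA profiles of CD11b+ cells from 2 skeletal sites side by side, 3 libraries from the long-bone marrow (called femur in the labels) and 3 from the mandible. All mice were 2 months old and of the strain given as C57Bl/6 in the sample labels and as C57Bl/6J in the protocol, with no treatment and no altered allele in either group. Femur 1 was labelled female, while femur 2, femur 3 and the 3 mandible libraries were labelled male, so that the single female library lay in the femur group. Marrow was flushed from the bones, the mandibles after extraction of the molars and flushing of their sockets, and cells were positively selected on magnetic columns with beads against CD11b, the integrin encoded by Itgam. The submitted protocol names femurs and tibiae for the long-bone site while the methods name femurs alone, and neither says how many mice went into 1 library, so that p-values measure the spread between these libraries only.

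In marrow, blood cells of every lineage arise from multipotent stem and progenitor cells that carry the receptor Kit and, only in some of them, the surface protein CD34. These cells use transcription factors such as Meis1, Mecom, Gata2 and Hlf. Progenitors that turn to the granulocyte path switch on the enzymes of the primary (azurophil) granules, among them myeloperoxidase (Mpo), neutrophil elastase (Elane), proteinase 3 (Prtn3) and cathepsin G (Ctsg), divide a few more times, and then fill their secondary granules with products such as Camp and Ltf while the primary granule genes are switched off. Monocyte progenitors share the first of these steps and then depend on Irf8 and Klf4. Red cell progenitors depend on Gata1 and Klf1, and basophil and mast cell progenitors on Gata2.

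Between 82957897 and 244942663 UMIs (unique molecular identifiers, each standing for 1 captured transcript) belonged to the kept cells of a library. Femur 3 stood apart with 22797 kept cells against 7763 to 11611 in the others, and femur 1 had lost 18.5% of its barcodes to the authors' filters against 1.88% to 5.14% elsewhere. Members were few in each library: 5, 7 and 15 cells of cluster 4 in femur 1, 2 and 3, and 9, 28 and 25 in mandible 1, 2 and 3, and 11, 15 and 8 and then 5, 44 and 17 cells of cluster 5 in the same order. Summed over its members, a library held 113198 to 680995 UMIs in cluster 4 and 75275 to 685842 in cluster 5. Mandible 1 was the thinnest for cluster 5, where 1 UMI was worth 13.3 CPM (the UMIs of a gene as a share of all UMIs of the summed cells, on the usual counts-per-million scale, which is the unit used throughout). No member barcode occurred among the members of another library, and 1 occurred among the kept cells of another library, where 500 of 69276 kept barcodes were found in 2 or more libraries.

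The members were deep cells. Their median was 24146 UMIs in cluster 4, close to the 21537.5 of the other cells there, and 18043 in cluster 5 against 10047.5 for the others, with 7 and 23 members under 10000 UMIs. No doublet caller was run, and the authors' upper limit of 6000 genes per cell was the only guard against 2 cells sharing a droplet. In the deposited phase calls all 89 members of cluster 4 were in S (57) or G2M (32), a share of 100% against 98.8% of the other cells, and 76% of the members of cluster 5 were in S (47) or G2M (29) against 16.5% of the others.

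A second reference (MouseRNA) and the deposited clustering at resolution 0.5 divided the members further. In cluster 4, 85 members lay in the finer group 10 and 4 in group 6, the latter with a median of 3022.5 UMIs, and the second reference called 61 of the 89 monocytes, 22 granulocytes, 4 erythrocytes and 2 B cells. In cluster 5, 73 members lay in group 16, of which 22 were called erythrocytes by the second reference and 51 had other labels, 23 lay in group 17 and 4 in other groups. The 51 cells of group 16 with other labels were spread over femur 1 to 3 as 7, 6 and 6 and over mandible 1 to 3 as 3, 20 and 9. The erythrocyte-labelled cells numbered 2, 7 and 1 in the femur libraries and 1, 9 and 2 in the mandible libraries, and those of group 17 numbered 1, 2 and 1, and 1, 14 and 4. Every one of these 3 sets was therefore present in every library.

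**Figure D1:**
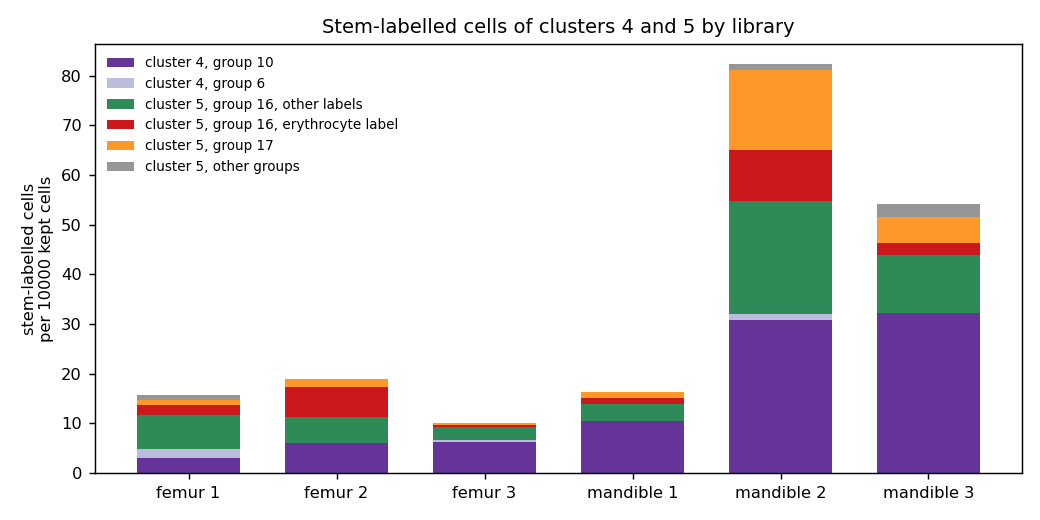
Stem-labelled cells per 10000 kept cells of each library (vertical axis) in the 3 femur and 3 mandible libraries, stacked by cluster and finer group. Mandible 2 and mandible 3 stand above the other 4 libraries, and group 17 (orange) makes up 20% to 31.8% of the cluster 5 members in the mandible libraries against 9.09% to 13.3% in the femur libraries, with 1 such cell each in femur 1, femur 3 and mandible 1.

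The 4 genes taken as markers of these progenitors behaved differently in the 2 clusters. In cluster 4, UMIs of Elane were found in 85 of 89 members, of Mpo in 80, of Kit in 50 and of Cd34 in 20, and 15 cells carried all 4. In cluster 5, Mpo was found in 36 of 100 members, Elane in 32, Kit in 42 and Cd34 in 42, only 6 cells carried all 4 and 29 carried none. The mature neutrophils of clusters 1 and 2, which should lack these genes, gave the level that free RNA can reach: 3.13% of 25453 cells had a UMI of Elane, 1.55% of Mpo, 1.18% of Kit and 0.0982% of Cd34, at a median of 5020 UMIs. After each cell was thinned to 2000 UMIs, leaving out 1 shallower member in cluster 4 and 4 in cluster 5, the shares were 95.5% for Elane, 79.5% for Mpo, 3.41% for Kit and 5.68% for Cd34 in cluster 4, and 18.8%, 25%, 20.8% and 13.5% in cluster 5. The thinned neutrophils gave 1.27%, 0.640%, 0.382% and 0.0322%. Among the labelled cells of cluster 4, Elane was thus found in nearly every cell and Cd34 in fewer than 1 in 4. In cluster 5, Kit and Cd34 were found in 42 of 100 cells each. Which genes led to the label was not tested. Neither set as a whole carried Kit and Cd34 together, which were found in 15 of 89 members of cluster 4 and 34 of 100 of cluster 5. Below, the cells are called by their label, cluster and group.

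CD11b, the protein used for selection, was poorly represented at the RNA level. Itgam UMIs were seen in 59 of 89 members of cluster 4 and in 40 of 100 members of cluster 5, against 98.2% of the other cells of cluster 4, 82.8% of the other cells of cluster 5 and 92.0% of the mature neutrophils in spite of their lower depth. Within cluster 5, Itgam was seen in 18 of 23 cells of group 17, 17 of the 51 cells of group 16 with other labels and 4 of the 22 erythrocyte-labelled cells. Ptprc, which encodes the pan-leukocyte surface protein CD45, was seen in 77 of 89 and 85 of 100 members.

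**Figure D2:**
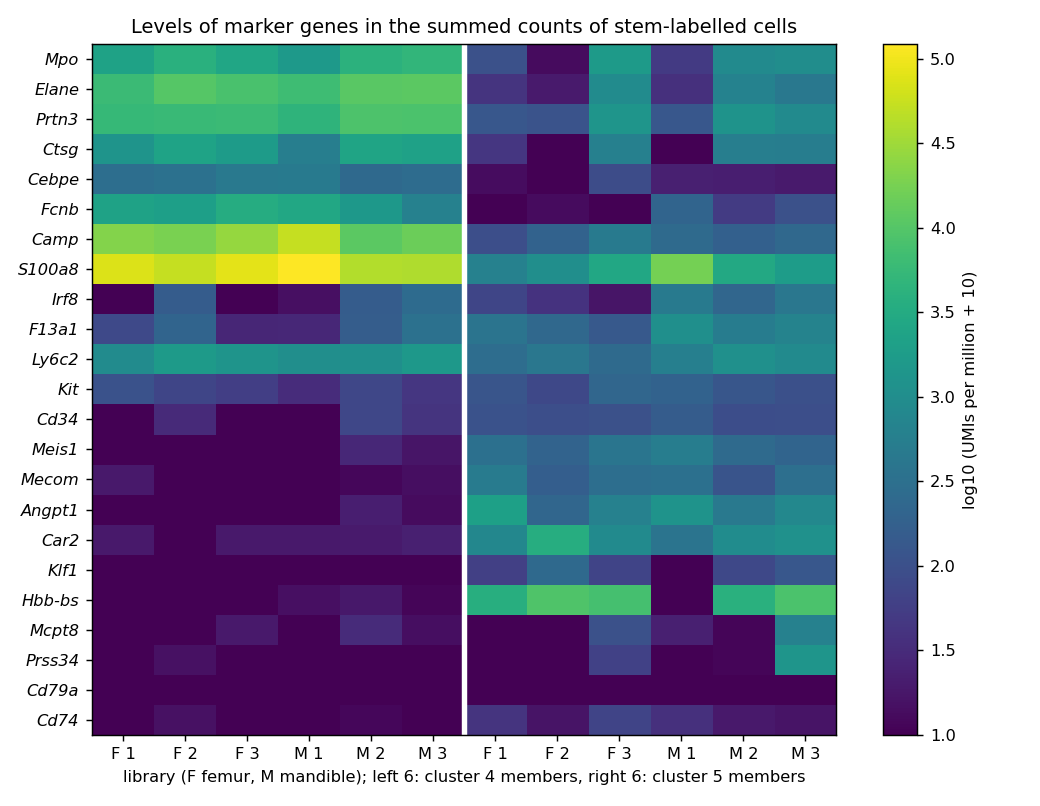
Levels of 23 marker genes (rows) in the summed counts of the members, with the 6 libraries of cluster 4 on the left and of cluster 5 on the right; colour is log10 of the CPM plus 10. The granule genes from Mpo to S100a8 are bright in all 6 columns of cluster 4, while Meis1, Mecom and Angpt1 are bright in all 6 columns of cluster 5 and Hbb-bs in all but mandible 1.

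The primary granule genes were the common property of the cluster 4 members. Elane, the elastase of the azurophil granule, stood at 6131, 10312 and 8179 CPM in the femur libraries and 6667, 10815 and 11470.0 CPM in the mandible libraries, here and below in the order of replicates 1, 2 and 3. Mpo, which makes hypochlorous acid in the phagosome, stood at 2253, 3895 and 2619 CPM in the femur libraries and 1565, 4181 and 4818 CPM in the mandible libraries. The ranges of the 2 sites overlapped for both genes, and mandible 1 had the lowest level of Mpo. Prtn3, a serine protease close to elastase, stood at 5451, 5834 and 6204 CPM in the femur libraries and 4611, 8906 and 8445 CPM in the mandible libraries, and Ctsg, the third of these proteases, at 1289.8, 2313 and 1721 CPM in the femur libraries and 556, 2420.4 and 2197 CPM in the mandible libraries. Mandible 1 was lowest for both and mandible 2 highest, and the sites overlapped. At least 3 of the 13 genes of this list, with 2 or more UMIs each, were present in 87 of 89 cells. The same rule was met by 72 of the 100 cluster 5 members, so it does not set cluster 4 apart. The summed list also stood at 4409 to 6850 CPM in the mature neutrophils of clusters 1 and 2. UMIs of both Mpo and Elane were found in 80 of 89 members of cluster 4 and 22 of 100 of cluster 5.

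The promoters of these 4 granule enzymes are shown because the genes were high together in every library, with that of Klf1, the erythroid factor with no UMI in the 89 members of cluster 4, for contrast. The sequences are from RefSeq on GRCm38.p6 (the build also called mm10), run 5′ to 3′ on the gene's strand from 250 bases before to 50 bases after the annotated start, and cover chr10:79886062-79886361 (+) for Elane, chr10:79879417-79879716 (+) for Prtn3, chr11:87793534-87793833 (+) for Mpo, chr14:56102525-56102824 (−) for Ctsg and chr8:84901732-84902031 (+) for Klf1. Capitals mark matches, on either strand, to GGAAGT (bound by PU.1, the myeloid master factor) and to TGTGGT (bound by RUNX factors, ACCACA where read on the other strand).
Elane: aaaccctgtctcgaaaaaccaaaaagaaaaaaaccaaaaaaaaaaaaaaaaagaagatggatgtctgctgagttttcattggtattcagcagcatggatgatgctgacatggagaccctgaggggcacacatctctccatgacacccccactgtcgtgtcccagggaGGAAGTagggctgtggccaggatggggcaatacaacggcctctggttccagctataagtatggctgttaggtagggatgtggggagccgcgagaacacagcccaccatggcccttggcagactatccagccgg
Prtn3: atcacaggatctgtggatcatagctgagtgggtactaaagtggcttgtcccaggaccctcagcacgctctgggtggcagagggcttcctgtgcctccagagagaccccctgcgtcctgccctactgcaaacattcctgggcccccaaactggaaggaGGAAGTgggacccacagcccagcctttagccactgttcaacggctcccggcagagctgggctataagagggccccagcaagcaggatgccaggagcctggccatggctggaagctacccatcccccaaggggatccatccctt
Mpo: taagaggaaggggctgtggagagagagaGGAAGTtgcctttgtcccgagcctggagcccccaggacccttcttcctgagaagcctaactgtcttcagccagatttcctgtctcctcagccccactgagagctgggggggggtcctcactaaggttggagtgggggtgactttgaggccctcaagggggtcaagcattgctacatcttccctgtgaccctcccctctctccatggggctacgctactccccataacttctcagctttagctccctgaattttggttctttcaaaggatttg
Ctsg: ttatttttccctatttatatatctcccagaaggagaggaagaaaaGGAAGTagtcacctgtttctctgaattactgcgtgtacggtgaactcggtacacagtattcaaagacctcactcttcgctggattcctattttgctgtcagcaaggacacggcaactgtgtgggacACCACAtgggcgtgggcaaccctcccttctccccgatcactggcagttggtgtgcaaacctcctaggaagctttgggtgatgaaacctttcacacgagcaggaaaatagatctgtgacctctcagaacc
Klf1: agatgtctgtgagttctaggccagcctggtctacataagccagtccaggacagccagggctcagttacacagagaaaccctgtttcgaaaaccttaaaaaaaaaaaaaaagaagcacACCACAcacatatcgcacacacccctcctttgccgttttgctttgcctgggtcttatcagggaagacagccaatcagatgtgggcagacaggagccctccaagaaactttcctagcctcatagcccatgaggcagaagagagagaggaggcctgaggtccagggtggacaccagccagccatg
GGAAGT occurred in the 4 granule promoters, at 83 bases before the start in Elane, 93 in Prtn3, 222 in Mpo and 205 in Ctsg, and not in the Klf1 window, where 23.8% of all 32851 promoters in the table hold it. TGTGGT occurred in Ctsg, 79 bases before the start, and in Klf1, 133 before it, against 16.8% of all promoters. Neither TTGCNNAA (C/EBP factors, 10.8% of all promoters), AGATAA (bound by factors of the GATA family, 11.2%) nor CCACACCC (KLF1, 3.56%) was found in any of the 5 windows, and none of the 5 motifs searched overlapped another in them. Only these spellings were searched, so that a site of the same factors spelled otherwise, in Klf1 or the others, would have been missed.

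The cluster 4 members were not uniform beyond their primary granules. The 12 later granule genes of maturing neutrophils (Camp, Ltf, Ngp, Lcn2, S100a8, S100a9 and others) took between 0.114% and 47.9% of the UMIs of a cell, with cells at both ends and few between. There were 33 cells under 1%, 13 between 1% and 10%, and 43 over 10%. The primary granule genes were highest in the middle: their median share of a cell's UMIs was 2.54%, 5.73% and 1.33% in the 3 bins. Since both are shares of the same total, these shares are a description of the cells and carry no test.

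Named genes differed along the same bins. With the UMIs of each bin pooled, Mpo stood at 5185, 7182 and 1576 CPM from the lowest to the highest bin and Ctsg at 3008, 4307 and 453 CPM. Cebpe, the factor needed for secondary granules, stood at 102, 311 and 506 CPM, and Fcnb, a ficolin made by immature neutrophils, at 67.4, 1023 and 3331 CPM. Mpo and Ctsg were thus lowest in the bin where Cebpe and Fcnb were highest. UMIs of Cd34 were found in 20 of the 33 cells of the lowest bin and in 0 of the other 56, while UMIs of Kit were found in 22, 8 and 20 cells of the 3 bins. Itgam went the other way, with UMIs in 7 of 33, 11 of 13 and 41 of 43 cells. The proliferation marker Mki67 was found in 23, 10 and 42 cells of the bins, so that all 3 held dividing cells.

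Many cells of the lowest bin carried monocyte genes. Irf8, the factor that directs progenitors to monocytes and dendritic cells, was found in 20 of the 33 cells of the lowest bin, 0 of 13 and 1 of 43, and F13a1, the coagulation factor chain typical of classical monocytes and their progenitors, in 19, 8 and 3. Cells with 2 or more UMIs of both genes numbered 16: 2 in femur 2, 4 in mandible 2, 10 in mandible 3 and none in the other 3 libraries. Ly86, a partner of the toll-like receptor CD180, was found in 18 of 33, 0 and 0 cells.

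**Figure D3:**
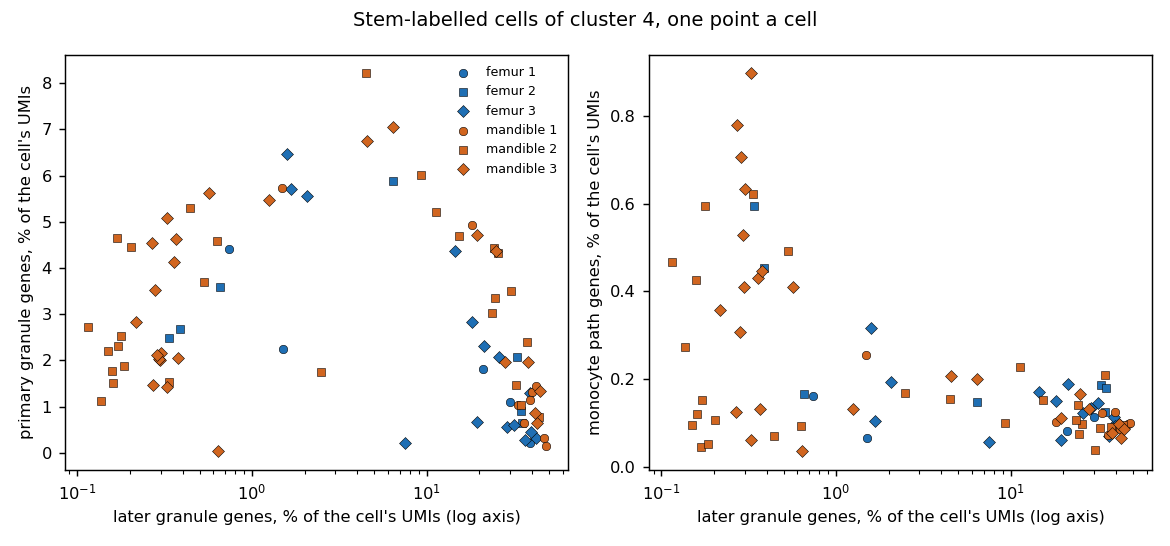
Each point is 1 of the 89 stem-labelled cells of cluster 4, by library (femur blue, mandible orange); the horizontal log axis is the share of the cell's UMIs from 12 later granule genes, and the vertical axes are the shares from primary granule genes (left) and monocyte path genes (right). Primary granule genes reach 8.21% between the 2 ends of the horizontal axis, and the 8 cells with monocyte path genes over 0.5% all lie at its low end.

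The libraries held these cells in different proportions. Cells under 1% numbered 1, 3 and 0 in femur 1 to 3 and 0, 14 and 15 in mandible 1 to 3, and cells over 10% numbered 3, 3 and 11, and 8, 11 and 7. Mandible 2 and 3 had the lowest medians for the later granule share (1.56% and 0.375%), mandible 1 the highest (39.3%), and the femur libraries lay between at 20.9%, 6.38% and 21.3%. The 2 sites overlapped, and the difference was not tested. In cells that should lack them the same 12 genes differed between libraries too: they had a median of 0.674% of UMIs in the cluster 5 members of femur 3 and 0.188% to 0.353% in those of the other 5 libraries, and its part in the count of cells under 1% was not tested.

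Against the 7532 other cells of cluster 4, which were also nearly all dividing, the members had more of the primary granule genes in every library. By the difference in the library where it was smallest, the leading genes were Ctsg, Elane, Prtn3 and Mpo, with Mpo at 3222 ± 1262 CPM (SD, n = 6 libraries) in members and 238 ± 81.8 CPM in the others. They were followed by Nme2, Nkg7, Cst7, the metallothionein Mt1, the mitochondrial protein C1qbp, the cytokine Mif and the ribosomal protein genes Rpl10a and Rps2. Lower in the members were Fpr2, a formyl peptide receptor (1.85 ± 1.80 against 130 ± 32.2 CPM), the gelatinase Mmp9 and the collagenase Mmp8, Olfm4, Retnlg, Plbd1, St3gal5, Pilra, Fmnl2, Ifitm6 and Dgkh. UMIs of Elane were found in 37.0% of the other cells, of Kit in 37.5% and of Cd34 in 0.292%, so that Kit alone set the members little apart.

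The cluster 5 members were a mixture, and the finer groups separated it. The largest set, the 51 cells of group 16 without an erythrocyte label, had the genes of multipotent progenitors. Pooled over these cells, Cd34 stood at 184 CPM against 13.9 in the erythrocyte-labelled cells and 13.3 in group 17. Kit, the receptor for stem cell factor, stood at 220.5, 47.8 and 0 CPM in the same order, and Meis1, a homeobox factor of stem cells, at 556, 47.8 and 15.6 CPM. All 3 were thus highest in the first set. Angpt1, a ligand of the receptor Tie2 that stem cells also make, was found in 43 of 51, 5 of 22 and 0 of 23 cells, and Mecom in 30, 3 and 0. The cytokine receptor Flt3 was found in 30 of the 51 cells and Gata2 in 26, while Procr, a marker of the most primitive stem cells, was found in 7. Of these 51 cells, 43 had more than 0.2% of their UMIs in the 20 multipotent genes, 23 were called G1 and 54.9% were called S or G2M.

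Over whole libraries the multipotent genes were present in cluster 5 at both sites. Cd34 stood at 97.4, 85.7 and 94.7 CPM in the femur libraries and 146, 81.7 and 84.3 CPM in the mandible libraries, and Meis1 at 317, 191 and 379 CPM in the femur libraries and 531, 249 and 198 CPM in the mandible libraries. Angpt1 stood at 2119, 214 and 619 CPM in the femur libraries and 1262, 445 and 794 CPM in the mandible libraries, and Kit at 108, 66.0 and 211 CPM in the femur libraries and 186, 112 and 90.8 CPM in the mandible libraries. For each of the 4 genes the femur and mandible ranges overlapped, and femur 2 was the lowest for Angpt1, Kit and Meis1. Mpo and Elane varied far more between libraries than Kit or Cd34, Mpo at 94.0, 3.30 and 1667 CPM in the femur libraries and 39.9, 895 and 1018 CPM in the mandible libraries, with femur 2 and mandible 1 near the level of a few UMIs. Within group 16 without an erythrocyte label, Mpo UMIs were found in 23 of 51 cells.

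Most of the 22 erythrocyte-labelled cells of group 16 had the RNA of the red cell lineage. Klf1 was found in 19 of them, Gata1 in 19 and the erythropoietin receptor gene Epor in 15, against 5, 6 and 1 of the 51 other cells of group 16. Pooled, the beta globin gene Hbb-bs stood at 20336 CPM and carbonic anhydrase 2 (Car2) at 4337 CPM, against 10.1 and 336 CPM in the other cells of group 16 and 8.89 and 0 CPM in group 17. Mpo and Elane were at 0 UMIs in the 22 cells. In 18 of them erythroid and megakaryocyte genes took more than 1% of the UMIs, and the other 4 had 0.0670% to 0.111% and instead carried more than 0.2% in multipotent genes. Of the mature neutrophils, which should lack both, 6.13% had a UMI of Hbb-bs and 0.0275% one of Klf1.

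Red cell genes differed widely between libraries, and so did the members with more than 1% of their UMIs in erythroid and megakaryocyte genes. Those numbered 1 of 11, 8 of 15 and 1 of 8 members in femur 1 to 3. In mandible 1 to 3 they numbered 0 of 5, 7 of 44 and 3 of 17. Klf1 stood at 48.7, 237 and 58.2 CPM in the femur libraries and 0, 65.6 and 120.0 CPM in the mandible libraries. Femur 2, where 7 of 15 members were erythrocyte-labelled, was the highest and mandible 1, where 1 of 5 was and that cell had little erythroid RNA, had no UMI, which with 3 UMIs as the limit allows up to 39.9 CPM. Hbb-bs stood at 3709, 9227 and 7529 CPM in the femur libraries and 0, 3913 and 8566 CPM in the mandible libraries, with mandible 1 again at 0. Mandible 2, with 9 erythrocyte-labelled cells among 44 members, lay below mandible 3, with 2 among 17, for both genes.

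Group 17 carried monocyte path genes in every cell. Irf8 was found in 23 of its 23 cells, F13a1 in 23, the chemokine receptor gene Ccr2 in 23 and Ly6c2, the surface marker of classical monocytes, in 23. Pooled, Irf8 stood at 462 CPM against 108 in group 16 without and 0 with the erythrocyte label, and F13a1 at 1816 CPM against 6.30 and 0. Klf4, a zinc finger factor needed for monocytes, stood at 404, 61.7 and 9.96 CPM. All of these were highest in group 17, which also kept primary granule RNA, with Prtn3 at 1787 CPM and Elane UMIs in 22 of 23 cells. Kit and Gata2 were at 0 UMIs in it, and all 23 cells were called S or G2M.

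**Figure D4:**
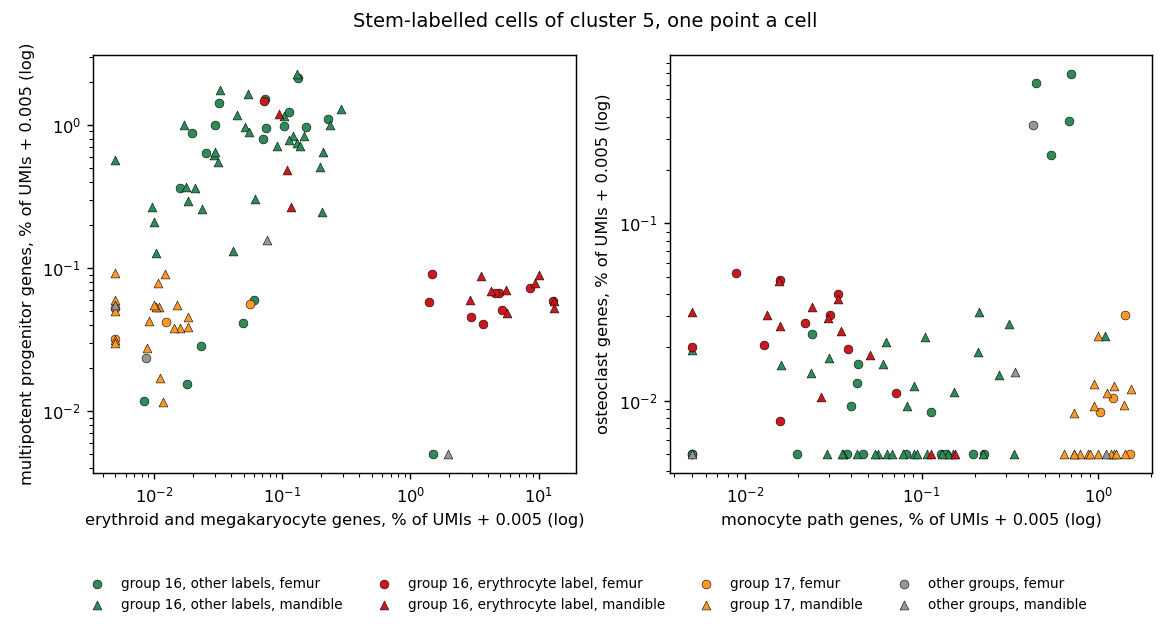
Each point is 1 of the 100 stem-labelled cells of cluster 5, coloured by finer group and label, with circles for femur and triangles for mandible; axes are shares of the cell's UMIs plus 0.005 on log scales. Left, multipotent genes against erythroid and megakaryocyte genes: 47 cells exceed 0.2% on the vertical axis, 20 exceed 1% on the horizontal axis and 0 exceed both; right, osteoclast genes against monocyte path genes: 5 femur cells stand apart at the top, and the group 17 cells lie at the right.

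Osteoclast genes, a list chosen after their values were seen, marked 5 members of cluster 5: 4 in femur 1, 1 in femur 3 and none in the other 4 libraries. A cell of femur 1 with 38063 UMIs had 76 of Ctsk, the collagen-degrading cathepsin K, 105 of Acp5 (tartrate-resistant acid phosphatase) and 26 of Atp6v0d2, a proton pump subunit. The cell of femur 3, with 24641 UMIs, had 36 of Ctsk, 60 of Acp5 and 30 of Atp6v0d2. The other 3 had 1 or 0 UMIs of Ctsk, 7 to 39 of Acp5, 7 to 33 of Atp6v0d2 and 12 to 58 of Tnfrsf11a, the receptor RANK. All 5 had UMIs of Nfatc1, the master factor of osteoclasts, and none had a UMI of Kit, Cd34 or Elane. They had 24641 to 38063 UMIs, above the median of the members, and 4 of them lay in group 16.

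Basophil and mast cell genes marked 6 more cells, 3 in femur 3, 1 in mandible 2 and 2 in mandible 3. The 2 cells of mandible 3 had 94 and 95 UMIs of Mcpt8 and 280 and 132 of Prss34, proteases of basophils. A cell of femur 3 had 28 UMIs of Ms4a2, the beta chain of the IgE receptor, and 11 of Cpa3, the mast cell carboxypeptidase. In cluster 4 a single such cell, in mandible 2, had 44 UMIs of Cpa3. Prss34 in the sums of cluster 5 therefore rested on few cells: it stood at 0, 0 and 51.0 CPM in the femur libraries and 0, 1.46 and 1336 CPM in the mandible libraries.

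The 4 members outside groups 16 and 17 were unlike each other. Besides 1 of the osteoclast-gene cells, 1 cell of mandible 3 with 20993 UMIs had 39 UMIs of Irf8, 19 of Flt3, 12 of the plasmacytoid marker Siglech and 9 of Dntt, the lymphoid terminal transferase. Another cell of mandible 3, of 1536 UMIs, had 28 of the platelet factor gene Pf4 and 2 of Itga2b, and a cell of mandible 2, of 1998 UMIs, had 6 of F13a1. No member of either cluster had 2 UMIs of 3 or more of the 15 lymphoid genes or of the 16 tooth, bone and stromal genes. Cd79a, Col1a1 and Dspp were at 0 UMIs in all 189.

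Between the 2 clusters the members differed in these genes throughout. Higher in cluster 5 in all 6 libraries were Angpt1 (909 ± 691 CPM against 2.49 ± 4.82, SD over 6 libraries), Car2 (1270 ± 1123 against 8.39 ± 4.42), Mecom (277 ± 134 against 2.54 ± 3.54) and Meis1 (311 ± 130 against 4.23 ± 7.38), with Ctla2a, 2610307P16Rik, Hbb-bt, S100a4, Lmna, Ifi30, Adgrg1 and Crip1. Lower in cluster 5 were Camp (233 ± 131 against 24575 ± 15353 CPM), Elane (345 ± 390 against 8929 ± 2255), Cebpe (19.7 ± 30.0 against 341 ± 96.7) and Ms4a3 (57.4 ± 53.8 against 908 ± 122), with Wfdc21, Ngp, Pglyrp1, S100a8, S100a9, Rflnb, Fcnb and Trem3. Camp UMIs were nevertheless seen in 93 of the 100 members of cluster 5 and in 88.9% of the mature neutrophils, and the part of free RNA in its level in cluster 5 was not tested.

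Against the other 7254 cells of cluster 5, the members were lower in Cd74 and in 3 class II genes, all named from this contrast itself. Cd74, the invariant chain, stood at 23.0 ± 20.3 CPM in members and 1710 ± 658 CPM in the others, and H2-Aa, H2-Ab1 and H2-Eb1 were lower too, with means of 2.49 to 20.4 CPM in members and 589 to 707 CPM in the others. Also lower were Adgre4, Plbd1, Cd177 and Ifitm6 and the granule genes Ltf, Ngp, Camp and Pglyrp1. Higher in the members were Car2, Angpt1, the adhesion receptors Adgrg1 and Adgrl4, Aff3, Mecom, Ctla2a, Sox4, 2610307P16Rik, Meis1 and Alad, the second enzyme of heme synthesis. Aff3 stood at 570 ± 254 CPM against 24.3 ± 23.5, and Sox4, a factor of progenitors, at 194 ± 69.5 against 8.81 ± 6.52.

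The question of the design, whether these cells differ between the jaw and the long bones, was first asked of their number. Cluster 4 members made up 0.0488%, 0.0603% and 0.0658% of the kept cells of the femur libraries and 0.105%, 0.320% and 0.322% of the mandible libraries. All 3 mandible libraries lay above all 3 femur libraries. The means were 0.0583% ± 0.00870 (SD, n = 3) and 0.249% ± 0.125 (SD, n = 3), a ratio of 4.27, and the 2-sided exact permutation test gave p = 0.10, the smallest that 20 assignments allow, or 0.20 after adjustment over the 2 clusters. Of the cells of cluster 4 itself, the members made up 0.570% ± 0.176 in femur and 2.31% ± 0.804 in mandible (exact permutation p = 0.10).

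Cluster 5 members made up 0.107%, 0.129% and 0.0351% of the femur libraries and 0.0582%, 0.503% and 0.219% of the mandible libraries. Mandible 2 was highest, but mandible 1 lay below femur 1 and femur 2, so that the sites overlapped. The means were 0.0905% ± 0.0492 and 0.260% ± 0.225 (SD, n = 3 each), a ratio of 2.87 with an exact permutation p of 0.30, also 0.30 after adjustment. The difference of the means was 0.169 percentage points, and 0.0481 without mandible 2 and 0.270 without mandible 1. Of the cells of cluster 5 the members made up 0.880% ± 0.282 and 1.79% ± 1.46 (exact permutation p = 0.50). Neither comparison can pass a threshold of 0.05 with 3 libraries a site.

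The share of cells called S or G2M was compared next, from the phase calls alone. In cluster 4 it was 100% in all 6 libraries, so that nothing could be compared. In cluster 5 it was 81.8%, 80% and 62.5% in the femur libraries and 40%, 81.8% and 70.6% in the mandible libraries, with the lowest value resting on the 5 cells of mandible 1. The difference of the means was -10.6 percentage points with an exact permutation p of 0.70, where 0.10 is the smallest possible, and it was 1.43 points in the other direction without mandible 1. The sites overlapped, and a difference of this size could not be detected with these libraries.

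For gene levels the counts of the members were summed per library and compared with edgeR. In sums of this kind fewer cells of a type and less RNA per cell cannot be told apart. In cluster 4, 0 of 3608 genes tested passed a false discovery rate of 0.05 (0% called), with 248 genes at an unadjusted p under 0.05, and DESeq2 also called 0 with 108 such genes. Levels in all mandible libraries above all femur libraries were found for 2.8% of the genes tested, and levels below for 7.98%. Without mandible 1 the count passing was 80, of which 26 were higher and 54 lower in mandible, and with only the 3 libraries of 10 or more members it was 744, of which 384 were higher and 360 lower. The latter set femur 3 alone against mandible 2 and 3, so that the femur side had no replicate and its count rests on the spread of the 2 mandible libraries. The cause of either rise was not tested.

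The genes of lowest p in cluster 4, among those without overlap between sites, are given as values that did not pass. Gm11290, a predicted gene, stood at 8.83, 30.7 and 14.9 CPM in the femur libraries and 56.1, 158 and 120.4 CPM in the mandible libraries. Every mandible library was above every femur library, with a log2 difference of 2.63 ± 0.453 (SE) and an adjusted p of 0.265 by edgeR's quasi-likelihood test with Benjamini-Hochberg adjustment. Ifitm3, an interferon-induced membrane protein that blocks virus entry, stood at 61.8, 102 and 80.5 CPM in the femur libraries and 149.5, 211 and 173 CPM in the mandible libraries, a log2 difference of 1.15 with an adjusted p of 0.655. For each gene named here, the lack of overlap between sites was a condition of the choice. Ppa1, Rtraf, Ten1 and the chromatin remodelling subunit Smarcb1 were also higher in all 3 mandible libraries, by 0.92 to 1.49 on the log2 scale.

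Lower in all 3 mandible libraries were Fgfr2, Nos1ap, Rps6ka3, Wrn, Vps26a and Pde8a, each with an adjusted p of 0.655. Fgfr2, a fibroblast growth factor receptor, stood at 115, 113 and 83.5 CPM in the femur libraries and 42.0, 34.1 and 23.5 CPM in the mandible libraries, a log2 difference of -1.65. Wrn, a DNA helicase, stood at 61.8, 66.5 and 71.6 CPM in the femur libraries and 28.0, 26.1 and 25.0 CPM in the mandible libraries, a log2 difference of -1.35. For both genes the lowest femur library was well above the highest mandible library.

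By list, the counts of cluster 4 genes without overlap between sites are to be read against 2.8% above and 7.98% below over all genes tested, at which 0 of 7 to 13 genes is near the background. Of the 13 primary granule genes, all tested, 0 were above or below in all mandible libraries and the median log2 difference was 0.05, beside 0.01 over all genes tested. Of the 12 later granule genes 10 were tested and 0 did not overlap, with a median of -0.05, and of the 10 neutrophil path genes 9 were tested, with a median of -0.15. The 7 monocyte path genes tested had a median of 0.94, 6 of them above 0, and again 0 were without overlap. Irf8 stood at 0, 143 and 0 CPM in the femur libraries and 4.67, 146 and 261 CPM in the mandible libraries. Mandible 1 thus lay below femur 2 for this gene. Without the filter on low counts, edgeR gave Irf8 a log2 difference of 1.72 with an adjusted p of 0.00304. That setting also passed genes with UMIs in a single library, such as Cpa3 (96.3 CPM in mandible 2) and Xist (583 CPM in femur 1, the female library). All 13 genes of ribosome production tested had a log2 difference above 0 (median 0.54, 0 without overlap), and so had 30 of the 35 proteasome genes (median 0.29). Nolc1, a nucleolar chaperone, stood at 26.5, 97.2 and 47.7 CPM in the femur libraries and 18.7, 114 and 104 CPM in the mandible libraries, with mandible 1 the lowest of all 6 libraries. Mandible 2 and 3, the highest for Nolc1, were the libraries with 14 and 15 cells low in later granule genes, and the part of that makeup was not tested.

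In cluster 5, 0 of 5252 genes tested passed with edgeR (0% called), 291 had an unadjusted p under 0.05, and DESeq2 called 4 with 196 at that level. Every mandible library lay above every femur library for 7.16% of the genes tested, and below for 3.33%. The 4 genes that DESeq2 called were Irf8 and Fcnb, higher in mandible, and Acp5 and Airn, lower. Without femur 2 edgeR called 37, of which 4 were higher and 33 lower in mandible, the latter led by the osteoclast genes Ctsk and Atp6v0d2, and without mandible 2 it called 1.

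Irf8 stood at 62.6, 29.7 and 7.28 CPM in the femur libraries and 465, 211 and 405 CPM in the mandible libraries. The lowest mandible library was far above the highest femur library. The log2 difference was 3.17 ± 0.519 (SE), with an adjusted p of 0.128 by edgeR and 7.2e-05 by DESeq2. Fcnb stood at 0, 3.30 and 0 CPM in the femur libraries and 199, 42.3 and 94.0 CPM in the mandible libraries, where the femur libraries held a single UMI between them, with an adjusted p of 0.148 by edgeR. Of the 74 Fcnb UMIs in cluster 5, 73 were in group 17, where it stood at 162 CPM with UMIs in 13 of 23 cells, against 1.26 CPM in the 51 cells of group 16 with other labels. All 15 Fcnb UMIs of mandible 1 came from 1 cell, in which later granule genes took 9.96% of the UMIs, the highest share among the cluster 5 members, and 24 of the 29 of mandible 3 came from another. With the highest cell of each library left out, Fcnb stood at 0 CPM in the femur libraries and at 0, 31.1 and 17.8 CPM in the mandible libraries, so that mandible 1 no longer lay above femur. The sites did not overlap for either gene.

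The Irf8 UMIs were spread over more than group 17. Of 35 in mandible 1, 25 came from 1 cell of group 16, which also had 22 UMIs of Dntt and 12 of Flt3. Of 125 in mandible 3, 39 came from the cell with Siglech and Dntt described above and 37 from 1 cell of group 16, while in mandible 2, 127 of 145 lay in group 17. With the highest cell of each library left out, Irf8 stood at 3.84, 18.1 and 0 CPM in the femur libraries and 188, 189 and 299 CPM in the mandible libraries, a description without a test.

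Cebpb, a factor of the monocyte and granulocyte paths, stood at 76.6, 69.3 and 80.1 CPM in the femur libraries and 252, 238 and 217 CPM in the mandible libraries, and Slpi, a protease inhibitor of phagocytes, at 45.2, 56.1 and 43.7 CPM in the femur libraries and 119.6, 284 and 195 CPM in the mandible libraries, both with an adjusted p of 0.231. Gm34680 and Tex14 were higher in all mandible libraries as well, by 4.98 and 2.38 on the log2 scale.

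Other monocyte path genes were also higher in the mandible sums, without passing the test. Of 15, 12 were tested and 7 lay above in all mandible libraries (58.3%, against 7.16% of all genes tested), with a median log2 difference of 1.08 beside -0.05 over all genes, and 0 passed. F13a1 stood at 365, 234 and 131 CPM in the femur libraries and 1063, 507 and 668 CPM in the mandible libraries, and Ly86 at 55.7, 29.7 and 21.8 CPM in the femur libraries and 173, 114 and 146 CPM in the mandible libraries. Klf4 stood at 76.6, 36.3 and 65.5 CPM in the femur libraries and 119.6, 168 and 233 CPM in the mandible libraries, with a log2 difference of 1.55 ± 0.386 and an adjusted p of 0.430. None of the 3 overlapped between sites, but all 80 F13a1 UMIs of mandible 1 came from the same cell as its Fcnb UMIs, and the 105 of femur 1 and the 18 of femur 3 from 1 cell each. With the highest cell of each library left out, F13a1 stood at 0, 109 and 0 CPM in the femur libraries and 0, 444 and 396 CPM in the mandible libraries, so that the sites overlapped. In the sums of all members Fn1, Ly6c2 and Ms4a6c also lay above in all mandible libraries, and leaving out the highest cell was not run for them. S100a4, in the same list, stood at 1695, 237 and 779 CPM in the femur libraries and 186, 289 and 253 CPM in the mandible libraries. Of 5 neutrophil path genes tested 4 lay above in all mandible libraries, with haptoglobin (Hp) at 66.1, 98.9 and 116 CPM in the femur libraries and 252, 303 and 227 CPM in the mandible libraries. The share of group 17 among the members was also higher in every mandible library, at 9.09%, 13.3% and 12.5% in the femur libraries and 20%, 31.8% and 23.5% in the mandible libraries, where the shares of femur 1, femur 3 and mandible 1 rest on 1 cell each. With group 16 alone, 0 of 3917 genes tested passed, Irf8, Fcnb and Slpi were too low to be tested, and Cebpb had a log2 difference of 0.76 with an adjusted p of 0.999. Tex14 had 2.53 there with an adjusted p of 0.742, and Acp5 and Airn had -2.83 and -4.11, both with an adjusted p of 0.999.

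Acp5 and Airn were the genes of lowest p among those lower in mandible. Acp5 stood at 640.3, 125 and 502 CPM in the femur libraries and 0, 43.7 and 61.6 CPM in the mandible libraries, a log2 difference of -3.29 ± 0.630 with an adjusted p of 0.214, and no overlap between sites. Ctsk and Atp6v0d2 had UMIs in femur 1 and femur 3 only, with Ctsk at 268, 0 and 262 CPM in the femur libraries and 0, 0 and 0 CPM in the mandible libraries. These were the libraries with the 5 osteoclast-gene cells, which were picked by a list that holds Acp5, so that a smaller difference of Acp5 without them (-1.21 on the log2 scale) follows from the choice. Without them the log2 difference of Irf8 was 2.71 with an adjusted p of 0.729. Acp5 UMIs were also found in 19 of the 22 erythrocyte-labelled cells. Airn, a long noncoding RNA that silences the imprinted gene Igf2r, stood at 233, 62.7 and 51.0 CPM in the femur libraries and 13.3, 0 and 6.48 CPM in the mandible libraries, with femur 1 the highest. Without the 5 osteoclast-gene cells it was too low to be tested.

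Mitosis genes and mitochondrially encoded genes were mostly lower in mandible in cluster 5, without passing the test. Of 20 mitosis genes 18 were tested, and 6 lay below in all mandible libraries (33.3%, against 3.33% of all genes tested), with a median log2 difference of -0.71 and 1 of 18 above 0. Nusap1, a spindle protein, stood at 216, 343 and 269 CPM in the femur libraries and 79.7, 140.0 and 149 CPM in the mandible libraries, a log2 difference of -1.18 with an adjusted p of 0.652. Ube2c, the ubiquitin-conjugating enzyme of mitotic exit, stood at 237, 402 and 248 CPM in the femur libraries and 0, 192 and 87.5 CPM in the mandible libraries. Femur 2 was the highest for both and mandible 1 the lowest, at 0 UMIs of Ube2c. Of the 5 members of mandible 1, 0 were called G2M. Summed, the 20 mitosis genes stood at 3591, 4871 and 2876 CPM in the femur libraries and 2086, 2606 and 2960 CPM in the mandible libraries. In this sum the sites overlapped. The 20 DNA synthesis genes were all tested and had a median of 0.00, with 1 above in all mandible libraries. All 13 mitochondrially encoded genes had a log2 difference under 0 (median -0.89) and 4 lay below in all mandible libraries. Their sum stood at 43329, 32605 and 21581 CPM in the femur libraries and 25666, 20147.5 and 16944.5 CPM in the mandible libraries, and overlapped too. mt-Nd4l, a subunit of complex I, stood at 397, 251 and 299 CPM in the femur libraries and 93.0, 150.2 and 61.6 CPM in the mandible libraries, an adjusted p of 0.430. The erythrocyte-labelled share of the members, 18.2%, 46.7% and 12.5% in femur and 20%, 20.5% and 11.8% in mandible, was highest in femur 2 as well, and its part in the mitosis genes was not tested.

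In the other lists of cluster 5 few genes were without overlap, to be read against the 7.16% above and 3.33% below over all genes tested. The 17 multipotent genes tested had a median log2 difference of -0.05, with 1 below in all mandible libraries and 0 above, and the 11 primary granule genes tested a median of 0.59, with 1 above and 0 below. The 10 later granule genes tested had a median of 0.46, with 1 below. The 10 erythroid and megakaryocyte genes tested all had a log2 difference under 0, with a median of -0.84, yet 0 were without overlap. Of the 35 proteasome genes 2 were above and 1 below, and of the 13 immediate early and inflammatory genes tested, a list that includes genes the study names for these samples (Egr1, Nr4a1, Junb and Klf4), 2 were above and 0 below, Klf4 and Ier2. These 13 genes had a median log2 difference of 0.62, beside -0.05 over all genes tested, with 12 above 0, and 0 passed. In cluster 4 the 7 genes tested had a median of 0.47, with 6 above 0, and 0 passed. Since the list holds genes the study named from these samples, it is no independent evidence of a direction. Fos, an immediate early factor of the list that the study's text does not name, stood at 644, 106 and 226 CPM in the femur libraries and 545, 589 and 392 CPM in the mandible libraries. Of 13 cytokine receptors tested 2 were above, among them Csf2ra, a chain of the GM-CSF receptor, at 38.3, 42.9 and 21.8 CPM in the femur libraries and 106, 99.1 and 126 CPM in the mandible libraries. The 4 interferon response genes tested, the 16 genes of ribosome production tested (1 below), the 4 dendritic cell genes and the 2 basophil, mast and eosinophil genes gave 0 above, and no lymphoid or tooth, bone and stromal gene was high enough to be tested in either cluster. In cluster 4, against 2.8% above and 7.98% below over all genes, the 20 DNA synthesis genes had 3 below and 0 above, the 18 mitosis genes 0, the 12 mitochondrial genes 1 below, the 8 cytokine receptors 0, the 5 multipotent genes 0, and the 7 immediate early genes and the 3 interferon response genes 1 above each.

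**Figure D5:**
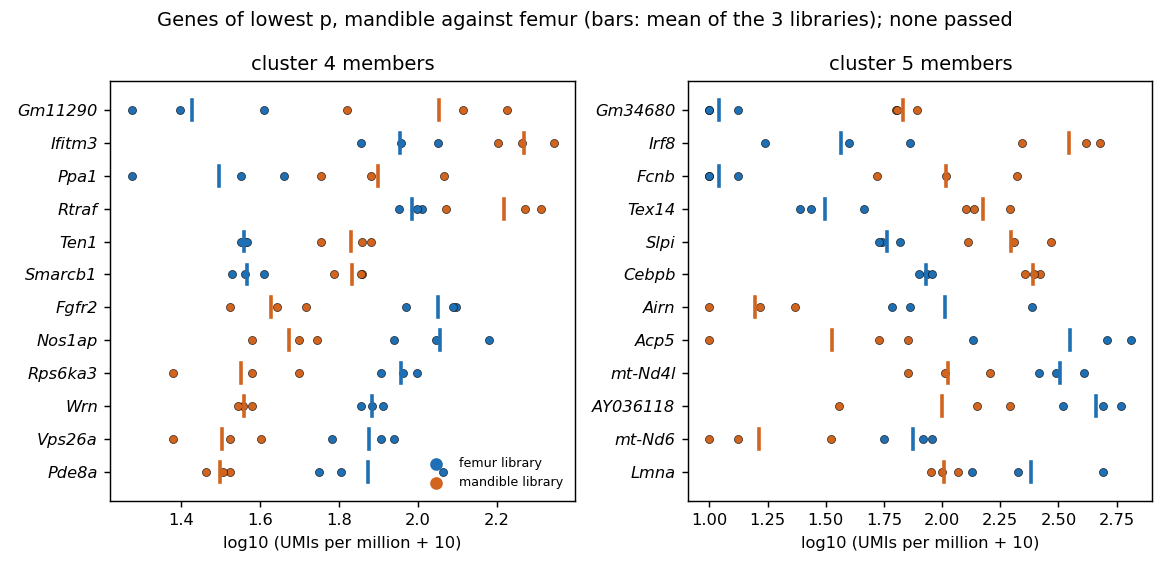
Genes of lowest p among those without overlap, mandible against femur, for the members of cluster 4 (left) and cluster 5 (right); each point is 1 library, bars are the means of the log values of 3 libraries, and the horizontal axis is log10 of the CPM plus 10. In every row the orange and blue points do not overlap, and none of the 24 genes passed a false discovery rate of 0.05 in edgeR.

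Whether the difference between sites itself differed between the 2 clusters was tested on the log2 differences within each library. Of 3375 genes 1 passed (0.0296% called), Fcnb. Its log2 difference between sites was larger by 4.31 ± 0.561 (SE) in cluster 5 than in cluster 4, with an adjusted p of 0.0296 in limma (337 genes at an unadjusted p under 0.05). The adjusted p was 0.278 without femur 1, 0.136 without femur 3, 0.0835 without mandible 1 and 0.0919 without mandible 3, and it stayed under 0.05 without femur 2 or mandible 2. In cluster 4, Fcnb stood at 2244, 2027 and 3356 CPM in the femur libraries and 2770.4, 1498 and 614 CPM in the mandible libraries, overlapping and with the 2 lowest values in mandible 2 and 3, while in cluster 5 the values given above were higher in all mandible libraries. Chil3, a chitinase-like protein of immature neutrophils and monocytes, came next with 3.37 ± 0.500 and an adjusted p of 0.0503. It stood at 45.2, 79.1 and 146 CPM in the femur libraries and 4105, 199.8 and 353 CPM in the mandible libraries in cluster 5, and at 3878, 1796 and 3183 CPM in the femur libraries and 4709, 886 and 1309.8 CPM in the mandible libraries in cluster 4. Mandible 1 gave by far the highest value in cluster 5, from its 5 cells. Of those, 1 cell had 2 or more UMIs of at least 3 neutrophil path genes, a list that holds Chil3. All Fcnb UMIs of this library also came from 1 cell, and the spread of its Chil3 UMIs over cells is not given here.

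Set against the other cells of the same cluster, the members showed no difference between sites that passed. In cluster 4, 0 of 3607 genes passed in limma (0% called, with 140 at an unadjusted p under 0.05). Among genes without overlap of these differences between sites, Gm11290 had the lowest p of those higher in mandible, and Nos1ap of those lower. In cluster 5, 0 of 5242 passed (0% called; 382 at an unadjusted p under 0.05). Irf8 and Ly86 had the lowest p among the genes higher in mandible, both with an adjusted p of 0.132, with the difference between sites larger in members than in the other cells by 2.98 ± 0.440 and 2.12 ± 0.316 (SE) on the log2 scale.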

How the data were processed

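CD11b+ marrow cells of 3 femur and 3 mandible libraries were sequenced with 10x 3′ chemistry. Per the labels, the authors aligned reads to mm10 with Cell Ranger 7.0.1 and processed cells in R 4.1.0 with Seurat, keeping those with 600 to 6000 genes and at most 20% mitochondrial reads. The deposited matrices hold raw UMI counts, and the deposited metadata hold the clusters, phases and labels used here, which the authors made from the same counts after integration. Phases were called by the authors from Seurat module scores for S and G2M genes. The deposited cluster marker table holds the authors' fold changes and p-values and was not used. Strand is not given in the sources used here.

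Counts of members were summed per library and tested with edgeR 4.0.16 (quasi-likelihood, TMM, filter on low counts) in R 4.3.3. Differences of site effects were tested with limma 3.58.1 from within-library log2 differences (prior count 2), and DESeq2 1.42.0 was an alternative. A false discovery rate of 0.05 was the threshold. Shares were compared by 2-sided exact permutation tests. The design had asked for 10 member cells a library, which 3 libraries of cluster 4 and 2 of cluster 5 did not reach. All 6 were used, and the stricter limit became an alternative chosen after seeing the data. Named genes were those of the lists, the 6 of lowest p in each direction without overlap and at 10 CPM or more (5 for differences of site effects), and the 12 of largest smallest-library difference at 50 CPM or more for members against other cells. A few genes that this rule or the lists name are not reported here. Members and lists were chosen with earlier results of these data known. Cell numbers limit precision, and a count of 0 was read against 3 UMIs. Such limits cover counting error only. The edgeR fit and the limma fit of differences were tested on simulated data, and the other steps were not.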

Additional observations from a re-analysis of the deposited data

Results flagged for a closer look

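Fcnb, the ficolin of immature neutrophils, differed between the clusters in its site effect: the log2 difference of mandible over femur was larger by 4.31 in the cluster 5 members than in the cluster 4 members, the test being of that difference itself. Of its 74 UMIs in cluster 5, 73 lay in 23 cells of group 17, and the femur libraries held 1 UMI. All 15 UMIs of mandible 1 and 24 of the 29 of mandible 3 came from 1 cell each. In the test between clusters 0 genes passed when femur 1, femur 3, mandible 1 or mandible 3 was left out.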

How the results depend on the processing

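Without the filter on low counts, 33 genes passed in cluster 4 and 113 in cluster 5, and DESeq2 called 4 in cluster 5. The genes passing without the filter included some with UMIs in a single library, such as Cpa3 in cluster 4 and Xist in both clusters. With only libraries of at least 10 members, an alternative chosen after seeing the data, 744 passed in cluster 4, where the lone femur library was assumed to vary like the others. Leaving out 1 library gave 0 to 80 calls in cluster 4, 0 to 37 in cluster 5, 0 to 3 for the difference between clusters, and 0 to 1 for members against other cells of cluster 5. The difference in dividing cells of cluster 5 ran from -19.5 to 1.43 points when 1 library was left out, turning direction without mandible 1 only. With the replicate number of the titles as a block, the difference between clusters had 16 calls, and members against other cells had 1 in cluster 4 and 6 in cluster 5, while both site effects stayed at 0. The numbers were not taken as pairs. Deviations of libraries with the same title number correlated at 0.213, 0.325 and -0.266 in cluster 4 and 0.223, 0.243 and -0.0358 in cluster 5. Sums of 5 to 44 cells cannot show whether libraries share animals, so such correlations do not settle the pairing. The library names carry other numbers, of which 6 and 7 occur at both sites. Libraries sharing these correlated at -0.448 and -0.273 in cluster 4 and -0.252 and -0.0899 in cluster 5, and a block on them in those 4 libraries gave 0 calls in both clusters. Of 580 values of named genes under alternatives, 529 kept direction and side of the threshold, 47 newly passed, 4 no longer passed and none changed direction. These genes had been named for low p and for values, or within-library differences, that did not overlap between sites. Reversals were therefore unlikely from the start, and the count is no evidence of stability. Cluster 4 had no member called G1, so leaving out the dividing cells could not be run there. The causes were not tested. With 5 to 44 cells a library, small differences were not detectable.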
